A study of Mus musculus with 8 samples.

Results

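Transcripts of the nuclear lamina and of the proteins that position muscle nuclei were measured by RNA-seq in whole soleus, a hindlimb muscle of mixed slow and fast fibres. The set holds 10 of the 22880 gene rows of each mouse's count table. The members were defined by gene symbol. They are Lmna, Lmnb1 and Lmnb2 of the lamina, Emd of the inner nuclear membrane, Syne1 and Syne2 (nesprin-1 and nesprin-2), Sun1 and Sun2, and Kif5b and Map7 of the microtubule system. The study compared 4 control mice (Dnm2 +/+) with 4 heterozygous Dnm2 +/K562E mice, all males of 2 months on a C57BL/6 background (C57BL/6J in the study's methods). Dnm2 encodes dynamin-2, a GTPase that severs membranes, and the K562E allele is a knock-in at the endogenous locus, so that every cell of these mice carries it beside a wild-type allele. A single LoxP site remained in an intron of the targeted allele. Controls were either littermates or animals of matching age. All values below are per mouse, with n = 4 mice for each genotype.

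Lamins are intermediate filaments that line the inside of the nuclear envelope. SUN proteins cross the inner nuclear membrane and hold nesprins, which cross the outer one, and the resulting bridge ties the lamina to the cytoskeleton. Muscle fibres carry many nuclei, which kinesin-1 and its microtubule partner MAP7 spread along the fibre, and lesions of lamin A/C, emerin or nesprins are known causes of muscle disease.

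Lmna was higher in Dnm2 +/K562E soleus, by 58.2%, whereas Lmnb1 and Syne2 were each 34.9% lower and Sun2 was 31.5% lower. Kif5b was 16.5% higher. Lmnb2, Emd, Syne1, Sun1 and Map7 did not pass the test. A gene was called when the adjusted p of the edgeR quasi-likelihood test was under 0.05 and the log2 fold change was at least 0.58 in either direction, with p adjusted over all 14001 genes tested. All 10 members passed the filter on low counts. Of these, 1 was called higher, where 12.9% of all tested genes were, and 2 were called lower, where 7.85% of all tested genes were. By the adjusted p alone, 2 members were higher and 3 were lower, beside 22.2% and 21.7% of all tested genes. The genotypes did not overlap in any mouse for 3 members that were higher and 4 that were lower, and the background for that was 20.6% and 20.5% of all genes. The median log2 fold change of the members was -0.14, beside 0.01 over all tested genes. In a set of 10 a single gene moves such a share strongly, so nothing is read from the shares and the description rests on the single genes.

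Promoter sequence is shown for the 3 members with the smallest adjusted p, to place the genes that carry the main differences. The windows come from RefSeq on GRCm38.p6 and span 250 bases before to 50 bases after a start site. For each gene the first listed window was taken. The part up to 30 bases past the first annotated start within that window is printed, on the strand of the gene. The start of the Lmna window, 88503352, lies inside the gene. The annotated gene begins further upstream, at 88509956, and the sequence at that start is not shown. Capitals mark matches, on either strand, to the GC box GGGCGG, to the CCAAT box, to the TATA box TATAAA, to the E-box CAGCTG, to the AP-1 site TGANTCA and to the CArG box. The windows printed are Lmna, chr3:88503323-88503602, minus strand, Syne2, chr12:75818068-75818163, plus strand, and Sun2, chr15:79742507-79742786, minus strand.
Lmna: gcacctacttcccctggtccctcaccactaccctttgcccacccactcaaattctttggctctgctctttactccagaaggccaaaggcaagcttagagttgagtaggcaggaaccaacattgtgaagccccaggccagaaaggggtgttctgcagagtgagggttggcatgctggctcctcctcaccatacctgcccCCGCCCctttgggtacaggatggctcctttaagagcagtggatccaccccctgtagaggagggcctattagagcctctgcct
Syne2: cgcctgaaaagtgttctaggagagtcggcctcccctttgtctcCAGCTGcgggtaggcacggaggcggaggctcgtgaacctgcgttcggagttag
Sun2: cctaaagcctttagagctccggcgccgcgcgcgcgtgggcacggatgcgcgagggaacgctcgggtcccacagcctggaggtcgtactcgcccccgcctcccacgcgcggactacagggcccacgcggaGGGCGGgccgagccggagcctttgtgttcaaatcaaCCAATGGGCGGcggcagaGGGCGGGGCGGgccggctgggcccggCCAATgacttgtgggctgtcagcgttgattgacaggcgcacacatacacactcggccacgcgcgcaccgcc
The Lmna stretch held 1 GC box and the short Syne2 stretch held 1 E-box. The Sun2 stretch held 4 GC boxes and 2 CCAAT matches, among which neighbouring matches adjoin or share a base. Of all 32851 windows of 300 bases, 35.7% held a GC box, 37.4% a CCAAT box, 16.3% the E-box, 13.6% the TATA box, 7.81% AP-1 and 1.63% a CArG box. Beyond the printed stretches, the Lmna window held 1 AP-1 match, the Syne2 window 3 GC boxes and the Sun2 window a further GC box, 5 in all. These matches are letters in a window and were not tested against the expression values. Windows were given for 8 of the 10 members, and those of Lmnb1 and Kif5b were not analysed here.

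Values are normalized read counts on the CPM scale, in which the library sizes were first scaled by TMM, a method that assumes that most genes do not differ. The 8 libraries held 33407430 to 48832814 counted reads. The TMM factors were 0.915 to 0.959 in controls and 1.037 to 1.103 in Dnm2 +/K562E mice, so that the scaling itself differed between the genotypes. With library size alone, the median gene moved to a log2 fold change of 0.22. Dnm2 transcripts measured 66.3 ± 4.74 CPM (SD, n = 4) in controls and 73.4 ± 2.43 CPM (SD, n = 4) in Dnm2 +/K562E mice, a log2 fold change of 0.15 that did not pass (edgeR adjusted p = 0.0909). Counts per gene do not separate the alleles, so this value does not check the genotype labels. The description of a single Dnm2 +/K562E mouse spells the allele differently, and that mouse was kept in its group by its title and genotype label.

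**Figure D1:**
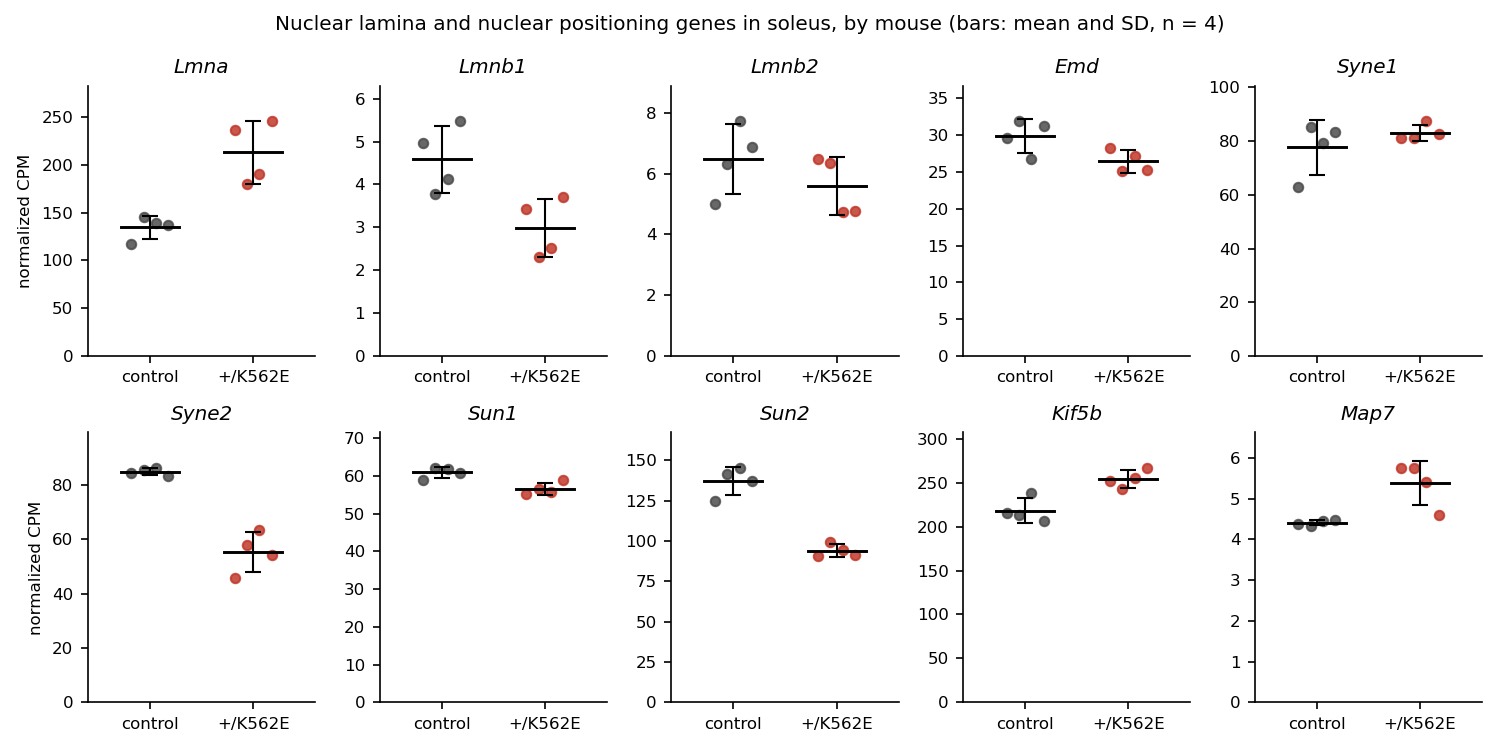
Normalized CPM (vertical axes, each from 0) of the 10 genes in every mouse, with 4 control mice in grey, 4 Dnm2 +/K562E mice in red, and the mean and SD in black. Lmna lies above, and Lmnb1, Syne2 and Sun2 below, all controls in all 4 Dnm2 +/K562E mice.

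Lmna encodes lamins A and C, the A-type lamins of differentiated cells (ENSMUSG00000028063, chromosome 3, 88480147 to 88509956, minus strand, GRCm38). In the control mice 1 to 4 it measured 117, 145, 139 and 137 CPM. In the Dnm2 +/K562E mice 1 to 4 it measured 237, 180, 190 and 246 CPM. All 4 Dnm2 +/K562E mice lay above the highest control, and they were spread more widely, with mice 1 and 4 high and mice 2 and 3 closer to the controls. The means were 134.7 ± 12.2 and 213.1 ± 32.9 CPM (SD, n = 4 each). On the log2 scale the fold change was 0.66 (SE 0.11, 95% interval 0.42 to 0.90), and the edgeR adjusted p was 0.000619. Leaving out any single mouse kept Lmna called, with log2 fold changes of 0.586 to 0.735.

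B-type lamins are farnesylated throughout their life and are found in most cell types. Lmnb1 encodes lamin B1 (ENSMUSG00000024590). It measured 4.98, 3.77, 4.12 and 5.48 CPM in the controls. In the Dnm2 +/K562E mice it measured 3.42, 2.30, 2.53 and 3.70 CPM. The groups did not overlap, but the highest Dnm2 +/K562E mouse (3.70 CPM) lay next to the lowest control (3.77 CPM). The log2 fold change was -0.62 (SE 0.20, 95% interval -1.05 to -0.19; edgeR adjusted p = 0.0245). This call rested on 99 to 186 reads per library and was lost without control 4 (adjusted p = 0.0605), without Dnm2 +/K562E mouse 2 (adjusted p = 0.0659) or 3 (adjusted p = 0.0694), and with library size alone (log2 fold change -0.41, adjusted p = 0.106).

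Lmnb2 encodes lamin B2 (ENSMUSG00000062075, chromosome 10, 80901203 to 80918245, minus strand). Its controls measured 5.005, 6.33, 7.73 and 6.89 CPM and the Dnm2 +/K562E mice 6.49, 6.35, 4.75 and 4.78 CPM. The groups overlapped, with 2 Dnm2 +/K562E mice among the controls. Its log2 fold change of -0.22 had an interval of -0.58 to 0.15 (edgeR adjusted p = 0.315), and the value fitted for Lmnb1 lies just outside this interval. Per kb of exon, Lmna was the most abundant lamin, at 23.1 CPM per kb in controls beside 1.55 for Lmnb1 and 1.51 for Lmnb2, and at 36.5, 1.01 and 1.30 CPM per kb in Dnm2 +/K562E mice. The levels of the B-type lamins in controls did not differ beyond their SDs of 0.263 and 0.267 CPM per kb.

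The ratio of A-type to B-type lamin reads was taken within each library, where the scaling cancels. The reads of Lmna divided by those of Lmnb1 gave 23.5, 38.6, 33.7 and 25.1 in the controls and 69.1, 78.1, 75.3 and 66.4 in the Dnm2 +/K562E mice. The ratio was 30.2 ± 7.13 in controls and 72.2 ± 5.40 in Dnm2 +/K562E mice (SD, n = 4), and every Dnm2 +/K562E mouse lay above every control. Lmna to Lmnb2 moved from 21.1 ± 2.58 to 39.1 ± 9.58 (SD, n = 4), again without overlap, with Dnm2 +/K562E mouse 2 lowest of its group at 28.3 and mouse 4 highest at 51.4. These ratios combine the genes already tested and carry no test of their own.

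Emd encodes emerin, a LEM-domain protein of the inner nuclear membrane that binds lamins (ENSMUSG00000001964, chromosome X, 74254687 to 74261548, plus strand). It measured 29.6, 31.9, 26.7 and 31.2 CPM in controls and 28.2, 25.1, 27.1 and 25.3 CPM in Dnm2 +/K562E mice. The groups overlapped, and 2 Dnm2 +/K562E mice lay below the lowest control. The log2 fold change was -0.17 (95% interval -0.34 to -0.01, edgeR adjusted p = 0.0820), and with library size alone its sign turned, to 0.04 (adjusted p = 0.743). Without control 3 it passed the adjusted p (log2 fold change -0.23, adjusted p = 0.0338). An annotated processed pseudogene on the same strand, Gm14686, covers 343 bases or 13.6% of the Emd exons, and 18.9% of the 31-base words of Emd also occur elsewhere in the transcriptome, so its level is less certain than those of the other members.

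Nesprins are giant spectrin-repeat proteins of the outer nuclear membrane. Nesprin-1, from Syne1, is the form best known from muscle nuclei (ENSMUSG00000096054, chromosome 10, 5020917 to 5551482, minus strand). Its controls measured 62.9, 85.2, 79.1 and 83.4 CPM, and the Dnm2 +/K562E mice 81.3, 81.1, 87.4 and 82.8 CPM. The groups overlapped, and control 1 lay well below the other mice. Its log2 fold change was 0.10 (95% interval -0.10 to 0.30, edgeR adjusted p = 0.401), which became 0.31 with library size alone (adjusted p = 0.0181).

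Syne2 encodes nesprin-2 (ENSMUSG00000063450, chromosome 12, 75818134 to 76110926, plus strand), and its promoter stretch is printed above. It measured 84.5, 85.6, 86.4 and 83.3 CPM in the controls. In the Dnm2 +/K562E mice it measured 45.6, 57.97, 63.4 and 54.3 CPM. The controls lay within a narrow band, with a coefficient of variation of 1.62%, and all 4 Dnm2 +/K562E mice were below it, with mouse 1 lowest. The means were 84.9 ± 1.38 and 55.3 ± 7.46 CPM (SD, n = 4 each), a log2 fold change of -0.62 (SE 0.09, 95% interval -0.82 to -0.42; edgeR adjusted p = 0.000258). Its adjusted p stayed under 0.05 without any single mouse, but without Dnm2 +/K562E mouse 1 the log2 fold change was -0.54, under the fold threshold, and with library size alone it was -0.41 (adjusted p = 0.00272).

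The reads of Syne2 divided by those of Syne1 fell without overlap, from 1.34, 1.01, 1.09 and 0.998 in the controls to 0.561, 0.715, 0.725 and 0.656 in the Dnm2 +/K562E mice. The ratio was 1.11 ± 0.161 in controls and 0.664 ± 0.0750 in Dnm2 +/K562E mice (SD, n = 4). Per kb of exon, Syne2 was above Syne1 in controls, at 3.18 ± 0.0515 beside 1.92 ± 0.251 CPM per kb, and the 2 genes lay within their SDs in Dnm2 +/K562E mice, at 2.07 ± 0.279 and 2.05 ± 0.0729 CPM per kb. These levels use the union of all annotated exons. Annotated transcripts of Syne1 run from 2726 to 27908 bases and those of Syne2 from 440 to 21704, and counts per gene do not tell short forms from the giant ones.

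SUN proteins anchor the nesprins in the space between the nuclear membranes, and SUN1 and SUN2 have overlapping roles. Sun2 (ENSMUSG00000042524, chromosome 15, 79724070 to 79742536, minus strand) measured 125, 141, 145 and 137 CPM in the controls. It measured 90.9, 99.5, 94.1 and 91.0 CPM in the Dnm2 +/K562E mice. Every Dnm2 +/K562E mouse lay below every control with a wide gap. The means were 137.1 ± 8.91 and 93.9 ± 4.03 CPM (SD, n = 4 each). The log2 fold change was -0.55 (SE 0.06, 95% interval -0.69 to -0.41), and its edgeR adjusted p of 6.3e-05 was the smallest among the members, although the fold was just under the threshold for a call. It passed the adjusted p under all 19 alternatives fitted to it, with -0.33 under library size alone (adjusted p = 0.00221).

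Sun1 (ENSMUSG00000036817, chromosome 5, 139200637 to 139249840, plus strand) measured 59.0, 62.2, 61.7 and 60.8 CPM in controls and 55.3, 56.6, 55.7 and 58.9 CPM in Dnm2 +/K562E mice. The groups did not overlap, but control 1 and Dnm2 +/K562E mouse 4 nearly met. The log2 fold change was -0.11 (95% interval -0.22 to 0.01, edgeR adjusted p = 0.136), and with library size alone it turned to 0.11 (adjusted p = 0.121). Within libraries, the reads of Sun2 divided by those of Sun1 were 2.11, 2.27, 2.35 and 2.25 in controls and 1.64, 1.76, 1.69 and 1.55 in Dnm2 +/K562E mice. The ratio was 2.25 ± 0.0996 against 1.66 ± 0.0889 (SD, n = 4), without overlap, and it shows that the pair changed unequally. Per kb of exon, Sun2 was more abundant than Sun1 in both genotypes, at 25.3 and 8.02 CPM per kb in controls and at 17.3 and 7.46 CPM per kb in Dnm2 +/K562E mice.

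**Figure D2:**
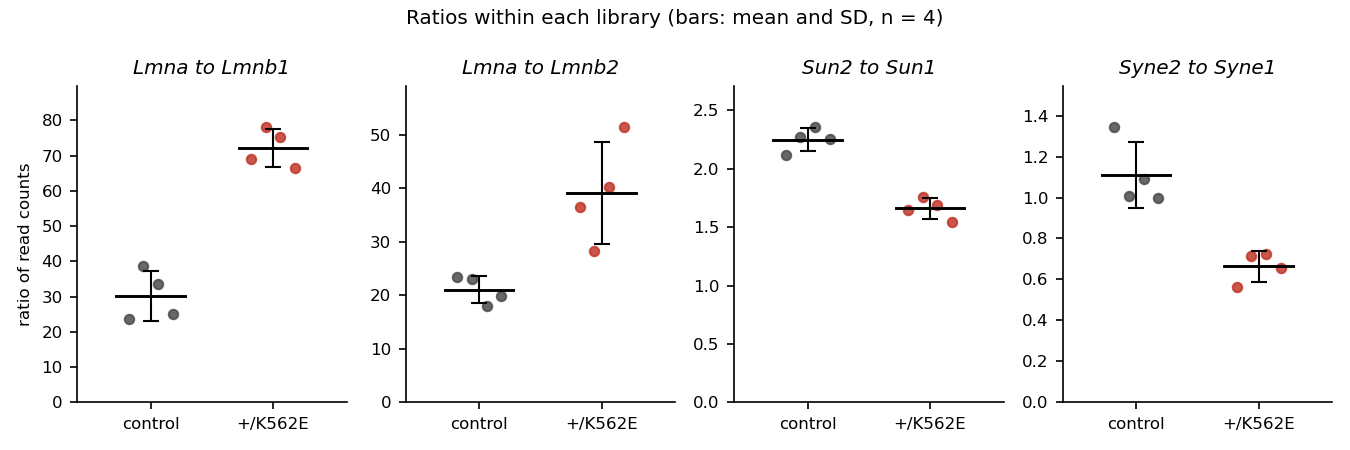
Ratios of read counts of 2 genes within each library (vertical axes, each from 0) in 4 control mice (grey) and 4 Dnm2 +/K562E mice (red), with mean and SD in black. Both lamin ratios were higher, and Sun2 to Sun1 and Syne2 to Syne1 were lower, in every Dnm2 +/K562E mouse than in every control.

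Kif5b encodes the heavy chain of kinesin-1, the motor that moves nuclei apart along microtubules in muscle fibres (ENSMUSG00000006740). It measured 215, 213, 238 and 206 CPM in controls. It measured 252, 243, 255 and 267 CPM in Dnm2 +/K562E mice. All Dnm2 +/K562E mice lay above the controls, of which control 3 came closest. Its log2 fold change was 0.22 (SE 0.06, 95% interval 0.08 to 0.36; edgeR adjusted p = 0.0140), which is under the fold threshold, and without control 2 the adjusted p was 0.0524. Per kb of exon, the order in controls was Kif5b (27.3 ± 1.74 CPM per kb, SD, n = 4), Sun2 (25.3 ± 1.64), Lmna (23.1 ± 2.10), Emd (11.9), Sun1 (8.02), Syne2 (3.18), Syne1 (1.92), Lmnb1 (1.55), Lmnb2 (1.51) and Map7 (0.556). This order is that of the means, and differences between neighbours were not tested. In Dnm2 +/K562E mice, the mean of Lmna (36.5 ± 5.64 CPM per kb) lay above that of Kif5b (31.9 ± 1.24), a difference that was also not tested.

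Map7 encodes a microtubule-binding protein that recruits kinesin-1 (ENSMUSG00000019996, chromosome 10, 20148471 to 20281590, plus strand). Its controls measured 4.38, 4.34, 4.46 and 4.47 CPM, and the Dnm2 +/K562E mice 5.76, 5.74, 5.41 and 4.59 CPM. These values rested on only 146 to 199 reads per library in controls and 170 to 247 in Dnm2 +/K562E mice. With so few reads, little can be read from the narrow spread of the controls. The groups did not overlap, with Dnm2 +/K562E mouse 4 just above the controls. Its log2 fold change was 0.29 (95% interval 0.02 to 0.55, edgeR adjusted p = 0.0787). It passed the adjusted p without Dnm2 +/K562E mouse 4 (0.35, adjusted p = 0.0411) and with library size alone (0.50, adjusted p = 0.00917). Map7 had the lowest level per kb of exon among the members in both genotypes, at 0.556 and 0.678 CPM per kb.

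**Figure D3:**
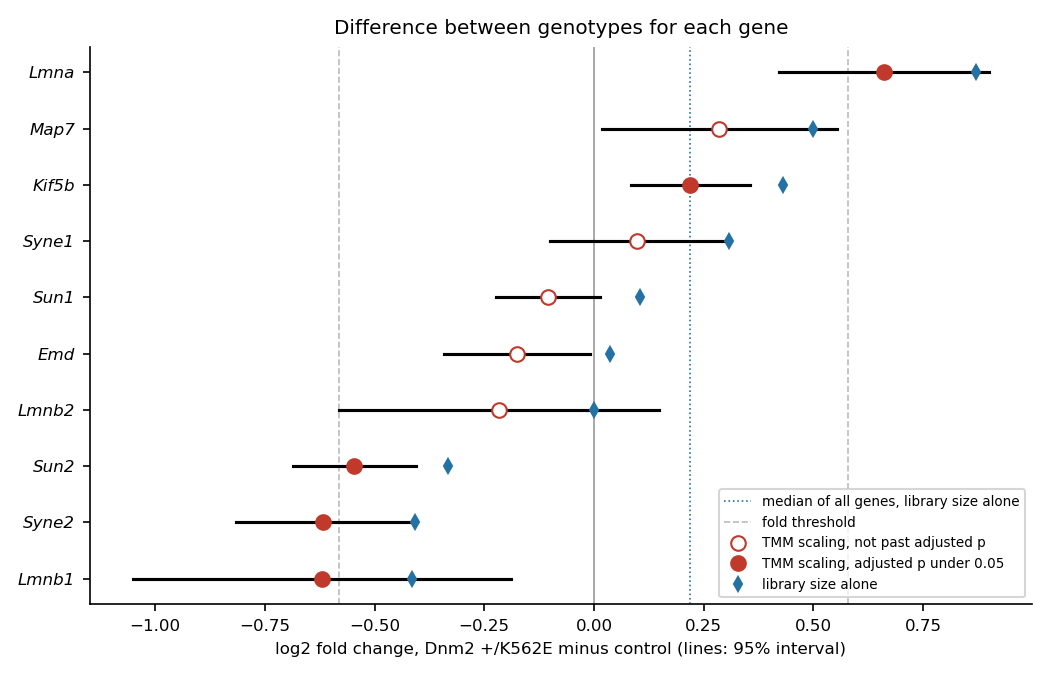
Log2 fold change of Dnm2 +/K562E against control (horizontal axis) for each gene with TMM scaling (circles, filled where the adjusted p is under 0.05) and its 95% interval, and with library size alone (blue diamonds). The diamonds lie to the right by about the shift of the median gene (0.22, dotted line), and Emd and Sun1 change sign between the scalings.

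A change of scaling shifts all genes by nearly the same amount, which subtracting the median of all genes removes by construction. With library size alone and that median subtracted, the log2 fold change of Lmna was 0.65, of Lmnb1 -0.63, of Syne2 -0.63, of Sun2 -0.55 and of Kif5b 0.21. The other 5 members lay between -0.22 (Lmnb2) and 0.28 (Map7) on this scale.

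A further 7 lists of the envelope and of nuclear positioning gave the surroundings of these genes. Of their 98 tested genes, 8 were called higher and 5 lower, beside the 12.9% and 7.85% of all tested genes. By adjusted p alone 18 were higher and 19 lower, beside 22.2% and 21.7% of all tested genes, and 61 did not pass. The median log2 fold change of the 98 genes was 0.02. The same shares of all genes are the background for each list below, and the lists are small, so nothing is read from their counts.

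Among 19 tested genes of the lamina and inner nuclear membrane, 2 were called higher and 3 lower, and by adjusted p alone 2 were higher and 8 lower. Called higher were Tmem43, which encodes the emerin-binding protein LUMA (40.9 ± 5.25 to 73.8 ± 7.05 CPM, SD, n = 4, log2 fold change 0.85), and Mlip, which encodes a lamin A/C-interacting protein of muscle (88.6 ± 5.91 to 135 ± 6.87 CPM, SD, n = 4, log2 fold change 0.61). Plpp7, Tmem38a and Tmem201 were called lower. Plpp7, also known as NET39, measured 59.0 ± 4.60 CPM in controls and 23.9 ± 1.00 CPM in Dnm2 +/K562E mice (SD, n = 4, log2 fold change -1.31, edgeR adjusted p = 6.94e-07). Tmem38a, which encodes the cation channel TRIC-A of the sarcoplasmic reticulum and nuclear envelope, measured 1347 ± 69.6 and 749.9 ± 28.2 CPM (SD, n = 4, log2 fold change -0.84). Tmem201, which encodes the inner membrane protein SAMP1, had a log2 fold change of -0.65.

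Of the other nesprins and SUN proteins, 3 could be tested and none was called. Syne3, which encodes nesprin-3, passed the adjusted p at a log2 fold change of 0.41 (edgeR adjusted p = 0.0299), and Sun3 and Sun5 had no reads in any mouse. Of the 9 kinesin-1 and MAP7 relatives, 0 passed the edgeR adjusted p, and 0 had an unadjusted p under 0.05 or passed with DESeq2 or the edgeR exact test.

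The nuclear pore list held 26 tested genes, of which 1 was called higher and 2 were called lower. By adjusted p alone 2 were higher and 5 lower, and 19 did not pass. Nup133, a subunit of the outer scaffold of the pore, fell from 61.3 ± 7.96 to 17.9 ± 1.81 CPM (SD, n = 4, log2 fold change -1.77, edgeR adjusted p = 1.11e-06). No other scaffold gene of the list was called lower. Nup210, a membrane-spanning pore protein, had a log2 fold change of -0.98, and Nup93, of the inner ring, one of 0.65.

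Among 18 tested dynein genes, 3 were called higher and none lower, and by adjusted p alone 7 were higher and 2 lower. Dync1li1, a light intermediate chain that links the minus-end motor to its cargo, rose from 31.1 ± 1.88 to 51.8 ± 3.38 CPM (SD, n = 4, log2 fold change 0.74, edgeR adjusted p = 1.66e-05). Bicd1, a cargo adaptor, rose at a low level, from 1.62 ± 0.240 to 4.31 ± 0.688 CPM (SD, n = 4, log2 fold change 1.41). Dync1i1 was also called, but its controls lay at 0 to 0.179 CPM, so its fold is not given.

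Of the 11 genes for microtubule organization at the muscle nucleus, 1 was called higher and 0 lower. By adjusted p alone 4 were higher and 2 lower. The called gene was Map1b, a microtubule-associated protein best known from growing neurons (31.3 ± 2.41 to 68.4 ± 5.87 CPM, SD, n = 4, log2 fold change 1.13). Of the 12 actin-linked genes, 1 was called higher and 0 lower, and by adjusted p alone 2 were higher and 2 lower. The called gene was Des, the intermediate filament that links nuclei, Z-discs and membrane (3079 ± 235 to 5088 ± 633 CPM, SD, n = 4, log2 fold change 0.72).

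**Figure D4:**
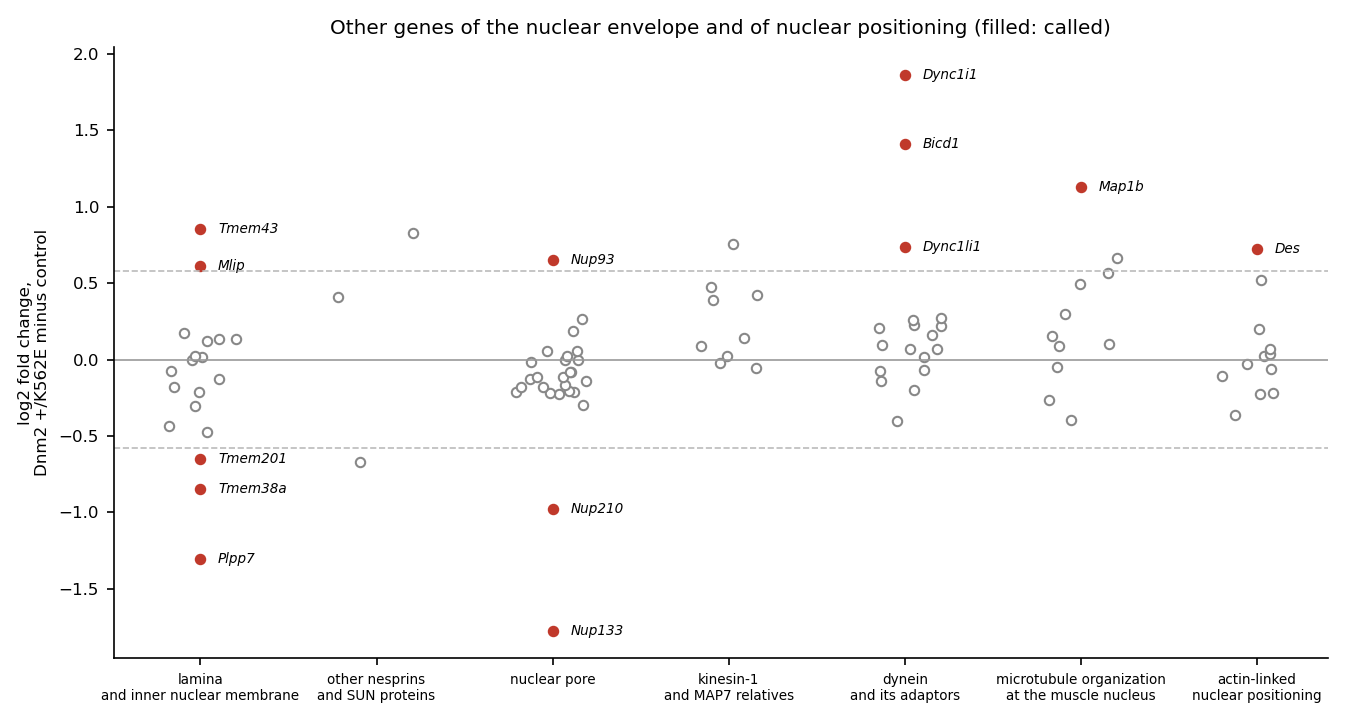
Log2 fold change of Dnm2 +/K562E against control (vertical axis) for the 98 tested genes of the 7 lists (horizontal axis). Filled and named points are the 8 genes called higher and the 5 called lower, dashed lines mark the fold threshold, and the spread of points within a list is only to separate them.

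Defining fibre markers were abundant in the controls, with Myh7, slow myosin, at 6014 ± 263 CPM and Myh2, a fast oxidative myosin, at 9753 ± 611 CPM (SD, n = 4). The members were measured in whole muscle, and markers of several cell types moved with genotype. In bulk tissue, fewer cells of a type and less RNA per cell cannot be told apart. All 8 macrophage markers and all 7 fibroblast markers were called higher. The summed fibroblast level was 2414 to 3752 CPM in controls and 5294 to 6954 CPM in Dnm2 +/K562E mice, with Dcn (log2 fold change 0.99) and Col1a2 (1.00) the most abundant in controls, and the summed macrophage level was 107 to 198 and 250 to 409 CPM, with Csf1r (1.18) and C1qa (1.20) the most abundant in controls. Lmna is expressed in many cell types, and the part of these in its higher level was not tested.

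All 5 endothelial markers passed the adjusted p as lower, 1 of them called. Their sum was 877 to 931 CPM in controls and 618 to 719 CPM in Dnm2 +/K562E mice, with Cdh5 at -0.40 and Pecam1 at -0.26 on the log2 scale. Slow fibre markers passed as lower for 5 of 6 genes (sum 15884 to 18809 against 8834 to 11744 CPM; Myh7 -0.52, Myl3 -2.12), and fast fibre markers for 5 of 7 (sum 34104 to 35375 against 22457 to 27225 CPM; Myh2 -0.62, Tnnt3 -0.69). These lists thus moved the same way as Syne2, Sun2 and Lmnb1, and their part in those differences was not tested. Among the fast markers, Myh4 measured 426, 372, 163 and 3134 CPM in controls 1 to 4, so control 4 stood apart. It measured 34.0 to 50.9 CPM in Dnm2 +/K562E mice. Whether this bears on the Lmnb1 call, which was lost without control 4, was not tested.

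Of the 5 regenerating fibre markers, Myh3, embryonic myosin, was called higher at 3.84 on the log2 scale, as was Myog, a factor of muscle differentiation, at 3.10. Myh8 gave 0.09, and it was among 3 that did not pass. With DESeq2 or the edgeR exact test, 4 of the 5 passed as higher. The sum was 46.8 to 57.3 CPM in controls and 343 to 502 CPM in Dnm2 +/K562E mice. It mostly followed Myh3, which measured 23.1 ± 2.66 and 330 ± 57.1 CPM (SD, n = 4 each). Of the 4 satellite cell markers, 3 were called lower, among them Pax7 (-2.03), and Chodl was called higher (1.82), so that their sum followed Chodl. Among the 6 dividing cell markers 1 was called higher, Mki67 (0.84), and Top2a (0.66) did not pass. The summed dividing cell level was 5.33 to 13.2 CPM in controls and 12.5 to 23.1 CPM in Dnm2 +/K562E mice, and 0 of the 6 passed as lower. Of the 4 adipocyte markers, 0 passed (edgeR adjusted p, unadjusted p or DESeq2), with Adipoq at -0.49 and Cidec at -0.15. No marker was at 0 in all mice.

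**Figure D5:**
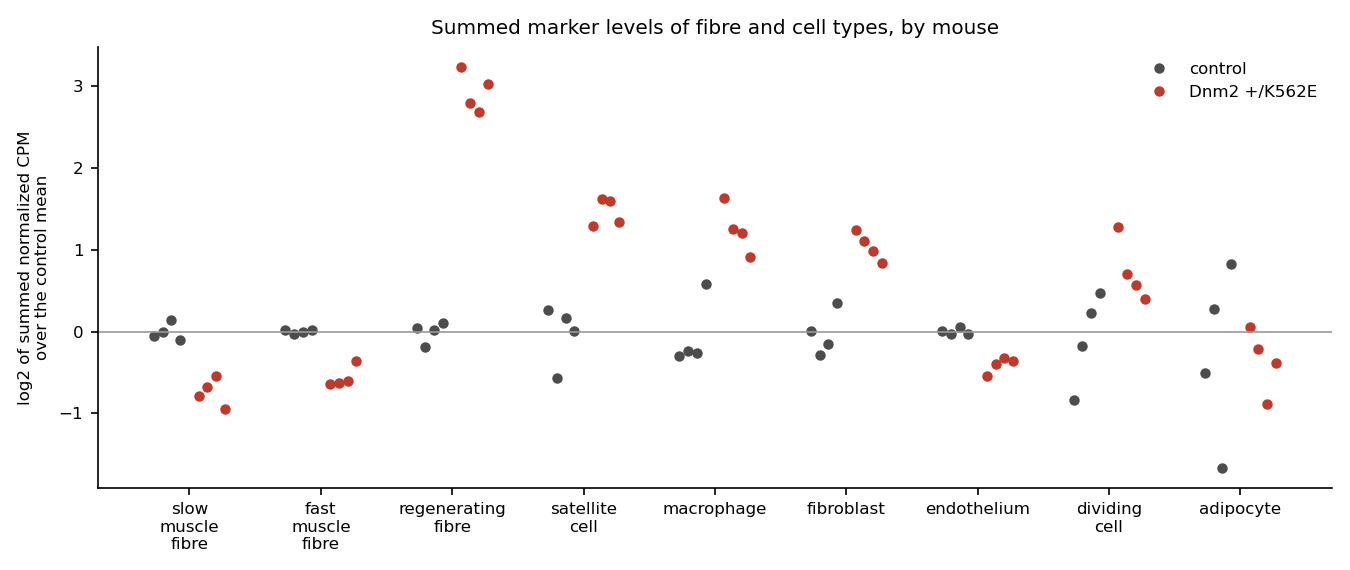
Summed normalized CPM of each marker list in every mouse, as log2 of its ratio to the control mean (vertical axis), for 4 control (grey) and 4 Dnm2 +/K562E mice (red). Macrophage, fibroblast and regenerating fibre sums lie higher, and slow fibre, fast fibre and endothelium sums lower, in all 4 Dnm2 +/K562E mice. The satellite cell sum also lies higher, through Chodl, while the other markers of that list were called lower. Adipocyte sums vary most among controls.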

How the data were processed

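RNA from soleus of 8 mice (4 per genotype) was sequenced. According to the study's methods the authors trimmed reads with Trimmomatic 0.33, aligned them with STAR 2.5.1b to GRCm38 and counted them per gene with featureCounts at a mapping quality of at least 10, with multi-mapping reads counted at their primary alignment and reads over several genes counted for each. The authors deposited whole read counts per gene and mouse without normalization. Use of strand was not given in the sources used here, so antisense genes over exons of Sun1, Sun2, Kif5b and Map7 could share reads with them. Libraries were poly A-enriched by the methods but made with a total RNA kit by the labels.

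From these counts, genes were filtered with filterByExpr (minimum count 10, minimum total 15), scaled by TMM and tested between genotypes with the quasi-likelihood F-test of edgeR 4.0.16 in R 4.3.3, with Benjamini-Hochberg adjustment over 14001 genes. DESeq2 1.42.0 and other settings were alternatives. Intervals are unadjusted 95% intervals of the fit. Of 22880 gene IDs, 22647 matched GENCODE M21, which gave symbols, positions and exon lengths. No columns of other samples were present. Named were all 10 members, Dnm2, the called genes of each pathway list (at most 3 in each direction, those of smallest p) and the 2 markers of each marker list with the highest mean in controls, of which the Schwann cell list is not reported here. Syne3, Sun3, Sun5, Myog and Myh4 were named after their values were seen. Members and lists were chosen with earlier results of these data known. Mouse numbers did not pair the mice. The fitting code was tested on simulated data.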

Additional observations from a re-analysis of the deposited data

Results flagged for a closer look

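Of the 42 groups of 4 mice examined, 3 held a mouse far from the others by Dixon's test, which chance gives in about 1 in 20 groups. Dnm2 itself was low in control 3, at 59.2 CPM. The summed fast fibre markers were highest in Dnm2 +/K562E mouse 4, at 27200 CPM, apart from the other 3 mice of that genotype. The summed macrophage markers were highest in control 4, at 198 CPM. None of the 10 lamina and positioning genes held such a mouse in either genotype.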

How the results depend on the processing

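Under the 19 alternatives fitted to single genes, Lmna, Syne2 and Sun2 kept their direction and an adjusted p under 0.05. With library size alone, 2865 genes were called higher and 564 lower, in place of 1806 and 1099. Under that scaling 0 members were called lower, although Syne2 and Sun2 still passed the adjusted p. Emd turned to 0.0361 and Sun1 to 0.106 on the log2 scale. By the edgeR adjusted p, 4 members passed as higher, but the median gene had itself moved to 0.22. The share of all genes at that rule is not given, so nothing is read from this count. With the adjusted p alone, 3103 genes were higher and 3036 lower, and 2 members were higher. Leaving out 1 mouse at a time gave 1588 to 1970 genes higher and 1026 to 1208 lower, 1 member higher and 1 to 3 members lower. A single member was called lower without control 4 or without Dnm2 +/K562E mouse 1, 2 or 3, and without control 2 a single member passed the adjusted p as higher. For the single members, 2 results reversed, 5 lost and 4 gained an adjusted p under 0.05. The cause was not tested.

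Mouse numbers as a replicate block gave 1637 genes higher and 1036 lower by title and 1739 and 1083 by description, and changed no member's call. Mice of one number did not deviate together (mean correlation -0.11 by title and -0.03 by description). Lmnb1, Lmnb2 and Map7 rested on the fewest reads, 99 to 345 per library.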
